A study of Mus musculus with 18 samples.

Results

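Collagens were followed in murine embryonic stem (ES) cells differentiating on PA6 stroma and in the stroma alone. A probe of the bead array was taken where its target name had the form COL, number, A, number and its detection p was under 0.05 on at least 3 of 18 arrays. This gave 49 probes of 31 collagen genes, out of 88 collagen probes of 40 collagen genes and 45281 probes in all. The 31 genes comprised 10 fibrillar chains, 6 basement membrane chains (type IV, XV and XVIII) and 15 others (beaded filament, network, transmembrane and fibril-associated types). No collagen probe was detected on exactly 3 arrays. The probes just inside the threshold numbered 5, each detected on 4 arrays, and the 2 just outside it were detected on 2 arrays. The 9 collagen genes left out were COL10A1, COL13A1, COL19A1, COL24A1, COL25A1, COL4A3, COL4A4 and COL8A2, detected on no array, and COL7A1, detected on at most 2.

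The co-cultures (ES/PA6) held τ-EGFP knock-in ES cells, maintained on embryonic fibroblast feeders beforehand, seeded on a monolayer of PA6, a bone marrow stromal line, and the mono-cultures held PA6 alone. Both were grown for 3 days in serum-free N2B27 medium with ascorbic acid, either with no growth factor (-GFs), with 20 ng/ml FGF2 or with 10 ng/ml BMP4. The BMP4 dose is that of the labels, and the study's methods name a lower one. Each of the 6 groups had 3 arrays, each from 1 well, so every p-value measures the spread between wells of 1 stromal line and 1 ES line. The ES cells and the PA6 cells of a co-culture were not separated before RNA extraction, so a lower signal there from fewer cells of a type and from less RNA per cell cannot be told apart, and carried-over feeder cells were not measured.

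Collagens are triple helices of chains that carry a glycine in each repeat of the helix. Fibrillar types I, II, III, V and XI are secreted as procollagens, trimmed at their ends and packed into cross-linked fibrils, whereas type IV chains form the sheet-like network of basement membranes, on which endothelium and epithelium rest. The remaining types decorate fibrils (types IX, XII, XIV, XVI), form beaded filaments (type VI), make short-chain networks (type VIII) or span the cell membrane (types XVII, XXIII). Stromal fibroblasts and bone marrow stroma are major producers of types I, III, V and VI, and ascorbic acid is a cofactor of the enzymes that hydroxylate the helix.

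All 31 array names matched a RefSeq symbol in the GRCm38.p6 table. The 120 bases before the RefSeq start of the 7 genes that met the call criteria for a growth factor are shown, because these are the windows in which regulation of those genes would first be looked for. They lie at chr1:45311418-45311537 (plus strand), chr1:90843972-90844091 (minus strand), chr4:121039446-121039565 (plus strand), chr4:63215292-63215411 (plus strand), chr6:8192618-8192737 (minus strand), chr16:57754738-57754857 (minus strand) and chr4:47207892-47208011 (plus strand), all in RefSeq GRCm38.p6. Capitals mark 5 motifs, each searched on both strands: the CCAAT box, the TATAAA element of a TATA box, GGGCGG of the GC box, TGANTCA of AP-1 sites and GGCGCC of BMP-responsive SMAD sites. A GC box on the other strand reads CCGCCC.
Col3a1: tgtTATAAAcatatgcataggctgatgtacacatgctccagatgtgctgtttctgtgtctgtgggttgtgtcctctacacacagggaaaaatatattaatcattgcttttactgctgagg
Col6a3: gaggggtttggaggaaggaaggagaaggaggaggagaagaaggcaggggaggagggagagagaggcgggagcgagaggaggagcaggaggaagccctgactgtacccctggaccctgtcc
Col9a2: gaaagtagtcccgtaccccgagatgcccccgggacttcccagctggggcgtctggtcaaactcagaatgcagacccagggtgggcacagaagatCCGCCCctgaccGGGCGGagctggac
Col27a1: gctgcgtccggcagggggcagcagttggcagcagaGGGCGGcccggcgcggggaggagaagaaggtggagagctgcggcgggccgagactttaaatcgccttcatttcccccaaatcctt
Col28a1: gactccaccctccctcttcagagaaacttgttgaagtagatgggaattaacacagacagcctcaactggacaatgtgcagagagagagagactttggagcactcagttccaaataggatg
Col8a1: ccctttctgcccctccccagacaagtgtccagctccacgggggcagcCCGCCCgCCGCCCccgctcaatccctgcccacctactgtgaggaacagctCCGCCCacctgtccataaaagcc
Col15a1: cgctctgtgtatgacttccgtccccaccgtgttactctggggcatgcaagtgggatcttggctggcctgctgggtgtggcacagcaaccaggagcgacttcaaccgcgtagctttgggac

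Over the 250 bases before the start, GGGCGG, the GC box bound by Sp1-type factors, was held by 59.3% of 27 windows of 24 collagen genes and by 32.7% of all 32851 windows. CCAAT was held by 37% of the collagen windows and 33.8% of all, TATAAA by 11.1% and 12.4%, GGCGCC by 11.1% and 9.59%, and TGANTCA by 3.7% and 6.75%. Among the sequences shown, TATAAA occurred before Col3a1, and GGGCGG before Col9a2, Col27a1 and Col8a1. The TATAAA of Col3a1 lies at the end of the stretch farthest from the start, and whether it acts as a TATA box was not tested. The stretches before Col6a3, Col28a1 and Col15a1 held none of these motifs.

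Intensities were background-corrected and quantile-normalised, and every level below is on this log2 scale. A gene was called higher or lower at a limma adjusted p under 0.1 over 16446 genes and an absolute log2 fold change over 1. Between 38 and 42 of the 49 collagen probes were detected on each array. Co-cultures gave 19365 to 20412 detected probes and mono-cultures 17125 to 18391. The stromal marker list (PDGFRA, PDGFRB, THY1, FBN1, POSTN, LUM and DCN, all 7 detected in PA6 cells in -GFs medium) had a summed level, back on the linear intensity scale, of 90075 to 98731 in PA6 -GFs and 50444 to 58465 in ES/PA6 -GFs, where POSTN was not detected. Such sums are weighted to the bright DCN probe, at 15.81 to 15.86 in PA6 -GFs and 15.04 to 15.17 in ES/PA6 -GFs. The mean log2 level of the 7 genes, POSTN included, was 11.90 in PA6 -GFs and 10.66 in ES/PA6 -GFs. Pluripotency markers summed to 21069 to 31185 in ES/PA6 -GFs and to 296.85 to 369.3 in PA6 -GFs, where SOX2, NANOG, ZFP42, UTF1 and TDGF1 were not detected.

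BMP4 lowered type III collagen in PA6 cells. COL3A1, the single chain of type III, which co-assembles with type I in vessel walls and skin, read 12.95, 12.64 and 12.32 in -GFs medium and 11.46, 10.83 and 10.88 with BMP4. The arrays did not overlap, and COL3A1 fell by 1.58 ± 0.29 (SE) on the log2 scale, a 2.99-fold difference (limma, adjusted p = 0.00828). With FGF2 the PA6 cells read 13.10, 12.11 and 12.19, which overlapped the -GFs arrays, with a log2 fold change of -0.17 (adjusted p = 0.813). FGF2 and BMP4 arrays of PA6 cells stood apart by 1.41 ± 0.29 on the log2 scale (adjusted p = 0.00334). A further COL3A1 probe gave -1.66 ± 0.56 for BMP4 in PA6 cells and did not pass the test (adjusted p = 0.174).

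In the co-cultures COL3A1 read 11.82, 11.28 and 10.61 in -GFs medium and 10.21, 10.01 and 10.01 with BMP4. All BMP4 arrays lay under all -GFs arrays, and the gene fell by 1.16 ± 0.29 on the log2 scale (adjusted p = 0.082). The call was lost when any 1 of 5 of the 6 arrays was left out, with adjusted p from 0.154 to 0.218, and was kept only without -GFs replicate 3. It was also lost with median scaling, with no detection filter, with co-culture arrays only and at an adjusted p under 0.05. The further COL3A1 probe gave -1.30 ± 0.56 (adjusted p = 0.402). The BMP4 effect in co-cultures minus that in PA6 cells was 0.42 ± 0.42 on the log2 scale, which did not pass the test (adjusted p = 0.843). The stromal marker list summed to 31953 to 48281 in the BMP4-treated co-cultures, against 50444 to 58465 in -GFs medium, and to 92197 to 96511 in BMP4-treated PA6 cells. Its mean log2 level was 10.38 in BMP4-treated co-cultures and 10.66 in ES/PA6 -GFs. The part of this shift in the co-culture value was not tested.

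COL6A3, the long α3 chain of the beaded filament collagen VI, behaved similarly in the mono-cultures. PA6 cells read 13.66, 13.39 and 13.35 in -GFs medium and 12.21, 12.41 and 12.58 with BMP4. The groups were separate, and COL6A3 fell by 1.07 ± 0.21 on the log2 scale (adjusted p = 0.0105), a call that was lost without -GFs replicate 1 (-0.97) or without BMP4 replicate 1 (-0.97). A further COL6A3 probe was also called lower, at -1.15 ± 0.31 (adjusted p = 0.0655). The FGF2 arrays, at 13.46, 13.28 and 13.34, overlapped those of -GFs medium.

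In the co-cultures COL6A3 read 12.90, 12.84 and 12.02 in -GFs medium, 12.84, 12.82 and 12.89 with FGF2 and 11.75, 12.23 and 11.57 with BMP4. The BMP4 difference from -GFs medium was -0.74 ± 0.21 (adjusted p = 0.126), and -GFs replicate 3 lay among the BMP4 arrays. Within each replicate number BMP4 was lower, with differences of -1.15, -0.61 and -0.46, and with the replicate block the difference passed the adjusted p (0.051) under the fold criterion. FGF2 and BMP4 were separate, at 1.003 ± 0.21 on the log2 scale (adjusted p = 0.00902), although the further probe gave 0.12 ± 0.31 there (adjusted p = 0.912). Without FGF2 replicate 3, BMP4 replicate 1 or BMP4 replicate 3 this difference, at 0.98, 0.96 and 0.86, no longer met the fold criterion. The partner chains did not pass the test for BMP4 in PA6 cells. COL6A1 gave -0.04 ± 0.22 (adjusted p = 0.989) and COL6A2, its neighbour on chromosome 10, gave -0.47 ± 0.31 (adjusted p = 0.633). COL6A1 read 13.82 to 14.68 in ES/PA6 -GFs and 15.13 to 15.30 in PA6 -GFs. Its unprocessed intensities were up to 43337.1 in PA6 -GFs and up to 55883.7 in FGF2-treated PA6 cells, where the brightest probe of the table was at 72879.

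COL9A2 moved the other way with BMP4. It encodes a chain of type IX, a fibril-associated collagen of cartilage. PA6 cells read 6.67, 6.69 and 6.47 in -GFs medium, 6.22, 6.85 and 6.50 with FGF2 and 7.58, 8.22 and 8.21 with BMP4. Every BMP4 array lay above every other mono-culture array, and COL9A2 rose by 1.39 ± 0.26 on the log2 scale over -GFs medium (2.63-fold, adjusted p = 0.00825). Without background correction the rise was 0.82, under the fold criterion. In the co-cultures the level was 7.78, 7.45 and 7.97 in -GFs medium, 9.20, 8.56 and 8.12 with FGF2 and 8.67, 8.10 and 8.20 with BMP4. The FGF2 rise of 0.89 ± 0.26 (adjusted p = 0.0506) and the BMP4 difference of 0.59 ± 0.26 (adjusted p = 0.405) were under the fold criterion. COL2A1, the cartilage fibril chain that type IX decorates, had a log2 fold change of 0.79 ± 0.55 with BMP4 in PA6 cells (adjusted p = 0.66). Its BMP4 arrays there, at 7.34, 7.12 and 7.16, all lay above the -GFs arrays, at 5.65, 6.96 and 6.65, of which 2 were detected. Further COL2A1 probes gave 0.85 (adjusted p = 0.397) and 0.14 (adjusted p = 0.977).

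Thus BMP4 called 3 of 31 collagens in PA6 cells, COL3A1 and COL6A3 lower and COL9A2 higher, where 1.41% of all genes were called. In the co-cultures it called 1 of 31, COL3A1, against 0.76% of all genes. None of them was called for a difference in its BMP4 response between the culture types by limma, for which 0.559% of all genes were called and 2 of the 31 had an unadjusted p under 0.05. At any fold, 4 of 31 collagens had an adjusted p under 0.1 in BMP4-treated PA6 cells, against 3.84% of all genes, the fourth being COL1A2 of type I at -0.92 ± 0.21 (adjusted p = 0.0271). In the same PA6 cells the adipocyte markers ADIPOQ, CFD, PPARG and CIDEC summed to 24780 to 56349 with BMP4, 9390.3 to 12644 in -GFs medium and 1404.1 to 1705.4 with FGF2, while FABP4 had no probe that passed the detection filter. Of the 4, none passed the test with BMP4 (log2 fold changes of 1.09 to 1.85), although for each every BMP4 array lay above every -GFs array. The fit used 1 spread per gene for all groups, co-cultures included. The SD of the list's mean level was 1.26 and 1.28 in -GFs and BMP4 co-cultures, and 0.16 and 0.58 in the matching PA6 groups. ADIPOQ, CFD and CIDEC were called lower with FGF2. The relation of these adipocyte marker shifts to the collagen values was not tested.

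**Figure D1:**
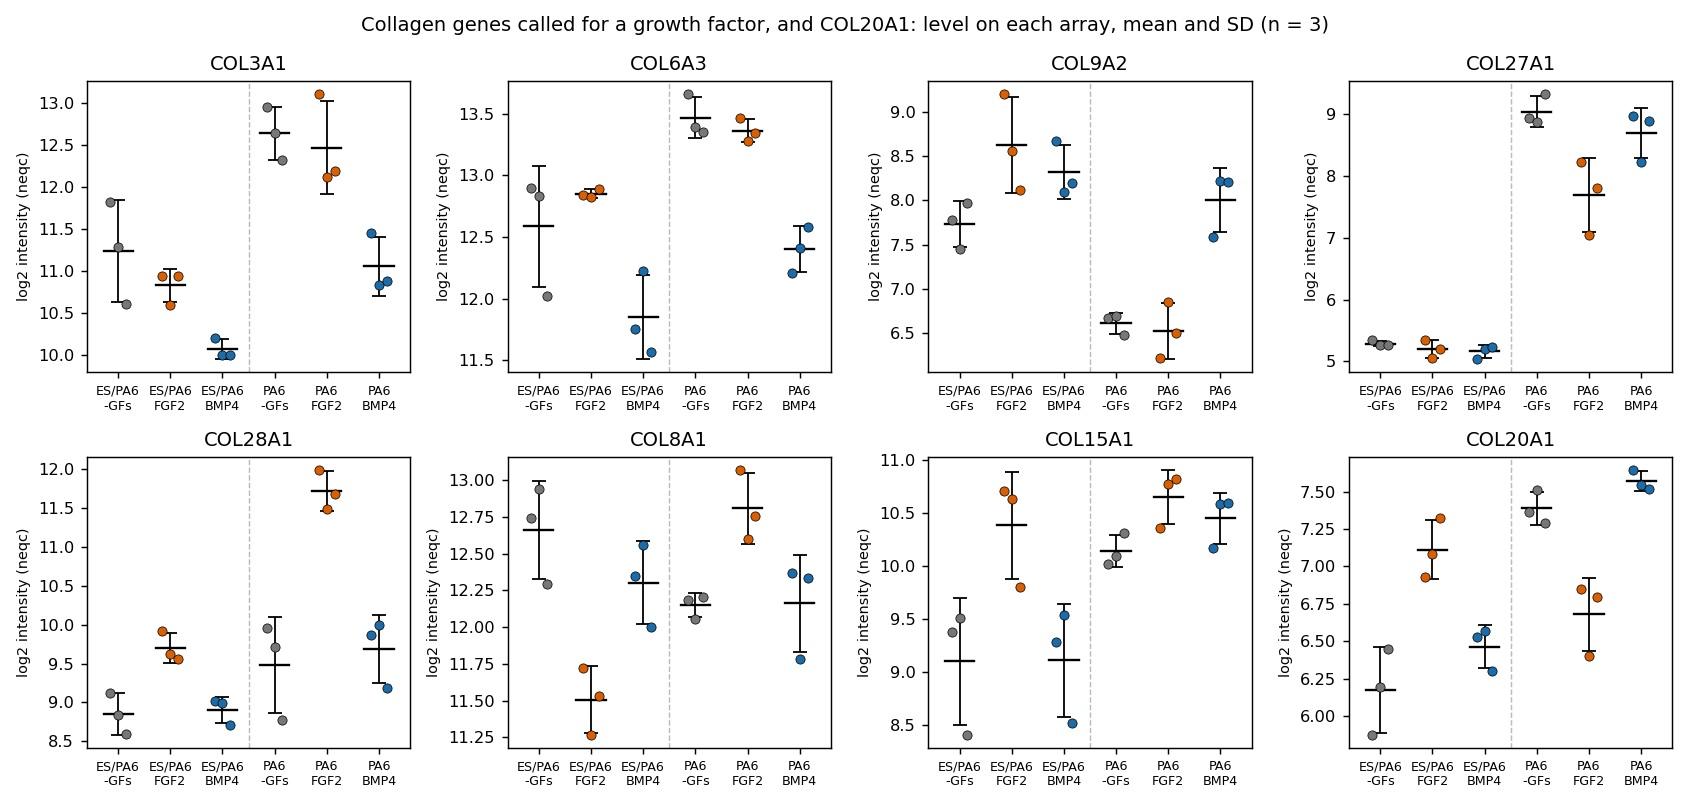
Normalised level (y axis, log2 intensity) of 8 collagen genes on each of the 18 arrays by group (x axis); points are arrays, horizontal bars are means and error bars are SD (n = 3), and y axes do not start at 0. COL3A1 was lowest with BMP4 in each culture type, COL28A1 was highest in FGF2-treated PA6 cells, from 11.49 to 11.99, and COL8A1 was lowest in FGF2-treated co-cultures.

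FGF2 raised COL28A1 in PA6 cells. COL28A1, a collagen with von Willebrand factor A domains known from peripheral nerve, read 9.95, 9.71 and 8.78 in PA6 -GFs and 11.99, 11.49 and 11.69 with FGF2. The groups were far apart, and COL28A1 rose by 2.24 ± 0.27 on the log2 scale, or 4.72-fold (adjusted p = 2.89e-05). BMP4-treated PA6 cells, at 9.87, 10.00 and 9.18, overlapped the -GFs arrays. In the co-cultures COL28A1 read 9.13, 8.84 and 8.60 in -GFs medium and 9.92, 9.63 and 9.56 with FGF2. All FGF2 co-culture arrays were higher, but the rise of 0.85 ± 0.27 (adjusted p = 0.0794) was under the fold criterion. The FGF2 effect was smaller in co-cultures than in PA6 cells by 1.39 ± 0.38 on the log2 scale (adjusted p = 0.0294).

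COL27A1, a fibrillar collagen of cartilage, fell with FGF2 in PA6 cells. It read 8.94, 8.87 and 9.33 in -GFs medium and 8.23, 7.05 and 7.81 with FGF2, without overlap, a difference of -1.35 ± 0.24 (adjusted p = 0.00116), which was -0.98 without background correction. A further probe gave -0.88 ± 0.29 (adjusted p = 0.0564), under the fold criterion. In the co-cultures the gene was detected on none of the 9 arrays, at 5.04 to 5.35, so its FGF2 response there has no measured size, and the difference between culture types of 1.27 ± 0.34 (adjusted p = 0.0282) rests on values at background and was lost without PA6 FGF2 replicate 2 (0.94). FGF2 and BMP4 arrays of PA6 cells overlapped for COL27A1, at 8.23 for FGF2 replicate 1 and for BMP4 replicate 2, although the gene was called at -1.0005 ± 0.24 (adjusted p = 0.01). That call was lost without FGF2 replicate 2 (-0.68), BMP4 replicate 1 (-0.86) or BMP4 replicate 3 (-0.90).

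COL8A1, a short-chain network collagen of vessel walls and the corneal endothelial membrane, changed with FGF2 in opposite directions in the culture types. In the co-cultures it read 12.74, 12.94 and 12.29 in -GFs medium and 11.72, 11.27 and 11.53 with FGF2. Every FGF2 array was lower, by 1.15 ± 0.21 on average on the log2 scale (2.22-fold, adjusted p = 0.00252). In PA6 cells it read 12.19, 12.06 and 12.21 in -GFs medium and 13.07, 12.60 and 12.76 with FGF2. Here every FGF2 array was higher, and the difference of 0.66 ± 0.21 (adjusted p = 0.0418) passed the test but not the fold criterion. The FGF2 effect in co-cultures minus that in PA6 cells was -1.81 ± 0.29 (adjusted p = 0.000931). The further COL8A1 probe gave the same signs, -0.83 ± 0.27 in co-cultures (adjusted p = 0.0944) and 0.57 ± 0.27 in PA6 cells (adjusted p = 0.202), and was also called for the difference of the effects at -1.39 ± 0.38 (adjusted p = 0.0298).

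Beside this, the stromal marker list summed to 37398 to 47069 in FGF2-treated co-cultures against 50444 to 58465 in -GFs medium, and the pluripotency list to 35017 to 42815 against 21069 to 31185. The pluripotency genes did not move together. NANOG, ZFP42 and SOX2 were higher on every FGF2 co-culture array than on every -GFs one, and POU5F1 and TDGF1 overlapped. UTF1 was lower on every FGF2 array, at 11.51, 11.43 and 11.24 against 12.33, 12.13 and 11.89. In PA6 cells the stromal list summed to 82214 to 94476 with FGF2, but its 7 genes did not move together. THY1 (-1.11, adjusted p = 0.00641) and POSTN (-1.25, adjusted p = 0.00587) were called lower, FBN1 passed the test with a higher level (0.75, adjusted p = 0.00838), and LUM (-0.85), PDGFRA (-0.45), PDGFRB (-0.42) and DCN (0.06) did not pass. On FGF2 replicates 2 and 3 POSTN read 5.27 and 5.84, under the lowest detected signals of 6.23 and 6.32, so its size rests partly on background. In co-cultures THY1 was called lower (-1.08, adjusted p = 0.0156), LUM (-1.41), PDGFRA (-0.51), DCN (-0.35), PDGFRB (-0.12) and FBN1 (0.07) did not pass, and POSTN was not detected. With the replicate block LUM was called lower too (adjusted p = 0.0192). The part of these shifts in the FGF2 results was not tested.

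COL20A1, a fibril-associated collagen, had the same kind of opposition with the signs turned. It read 5.88, 6.19 and 6.45 in ES/PA6 -GFs, 6.93, 7.09 and 7.33 in ES/PA6 with FGF2, 7.36, 7.51 and 7.29 in PA6 -GFs and 6.85, 6.40 and 6.80 in PA6 with FGF2. FGF2 arrays were all higher in co-cultures (0.94 ± 0.16, adjusted p = 0.00174) and all lower in PA6 cells (-0.71 ± 0.16, adjusted p = 0.00647). Neither change reached the fold criterion, but their difference did, at 1.65 ± 0.23 (adjusted p = 0.000252). The gene was dim, with unprocessed intensities from 145.9 to 294, and without background correction the difference of the effects was 0.83 (adjusted p = 5e-04).

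COL15A1, a proteoglycan-bearing collagen of the basement membrane zone, rose with FGF2 in co-cultures. The -GFs arrays read 9.37, 9.51 and 8.41, the FGF2 arrays 10.71, 10.63 and 9.80 and the BMP4 arrays 9.28, 9.53 and 8.51. Replicate 3 was the lowest array of each co-culture group, and within each replicate number FGF2 exceeded -GFs medium by 1.33, 1.12 and 1.39. The rise of 1.28 ± 0.31 (2.43-fold, adjusted p = 0.0189) was lost when -GFs replicate 3 was left out (0.94) and when the fit held co-cultures only (adjusted p = 0.117). With the replicate block the call was kept. In PA6 cells COL15A1 read 10.02, 10.09 and 10.31 in -GFs medium and 10.35, 10.77 and 10.82 with FGF2, a difference of 0.51 ± 0.31 (adjusted p = 0.333). The FGF2 effects in the culture types did not differ past the threshold, at 0.77 ± 0.43 (adjusted p = 0.305).

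In counts, FGF2 called 2 of 31 collagens in co-cultures, COL15A1 higher and COL8A1 lower, where 3.34% of all genes were called, and 2 of 31 in PA6 cells, COL28A1 higher and COL27A1 lower, where 5.27% were called. At any fold, 7 of 31 collagens passed the adjusted p in FGF2-treated co-cultures against 9.05% of all genes, and 6 of them were higher, against 5.27%. Those under the fold criterion were COL20A1, COL28A1, COL9A2, COL22A1 (0.95, adjusted p = 7.79e-05), a fibril-associated collagen of tissue junctions, and COL23A1 (0.94, adjusted p = 0.017), a transmembrane collagen. In PA6 cells 6 passed at any fold against 18.7% of all genes, among them COL16A1 (-0.68, adjusted p = 0.013), a fibril-associated collagen of fibroblasts, and COL23A1 (0.65, adjusted p = 0.0631). The test of the difference in FGF2 effect called 4 of 31 collagens, against 7.39% of all genes. COL8A1, COL20A1 and COL28A1 were measured in both culture types, whereas COL27A1 was not detected in co-cultures, so that its value rests on signals at background there.

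Set directly against each other, FGF2 and BMP4 called 2 of 31 collagens in co-cultures, COL15A1 (1.27 ± 0.31, adjusted p = 0.0236) and COL6A3, both higher with FGF2, where 2.85% of all genes were called. The COL15A1 call was lost without BMP4 replicate 3 (0.97) and when the fit held co-cultures only (adjusted p = 0.139), and was kept with the replicate block. In PA6 cells they called 4 of 31, against 5.82% of all genes. COL28A1 (2.04 ± 0.27, adjusted p = 6e-05) and COL3A1 were higher with FGF2, and COL9A2 (-1.48 ± 0.26, adjusted p = 0.000775) and COL27A1 were higher with BMP4. At any fold, 6 of 31 passed the adjusted p in co-cultures and 12 of 31 in PA6 cells, against 7.48% and 20.3% of all genes. These comparisons share their FGF2 and BMP4 arrays with those against -GFs medium.

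**Figure D2:**
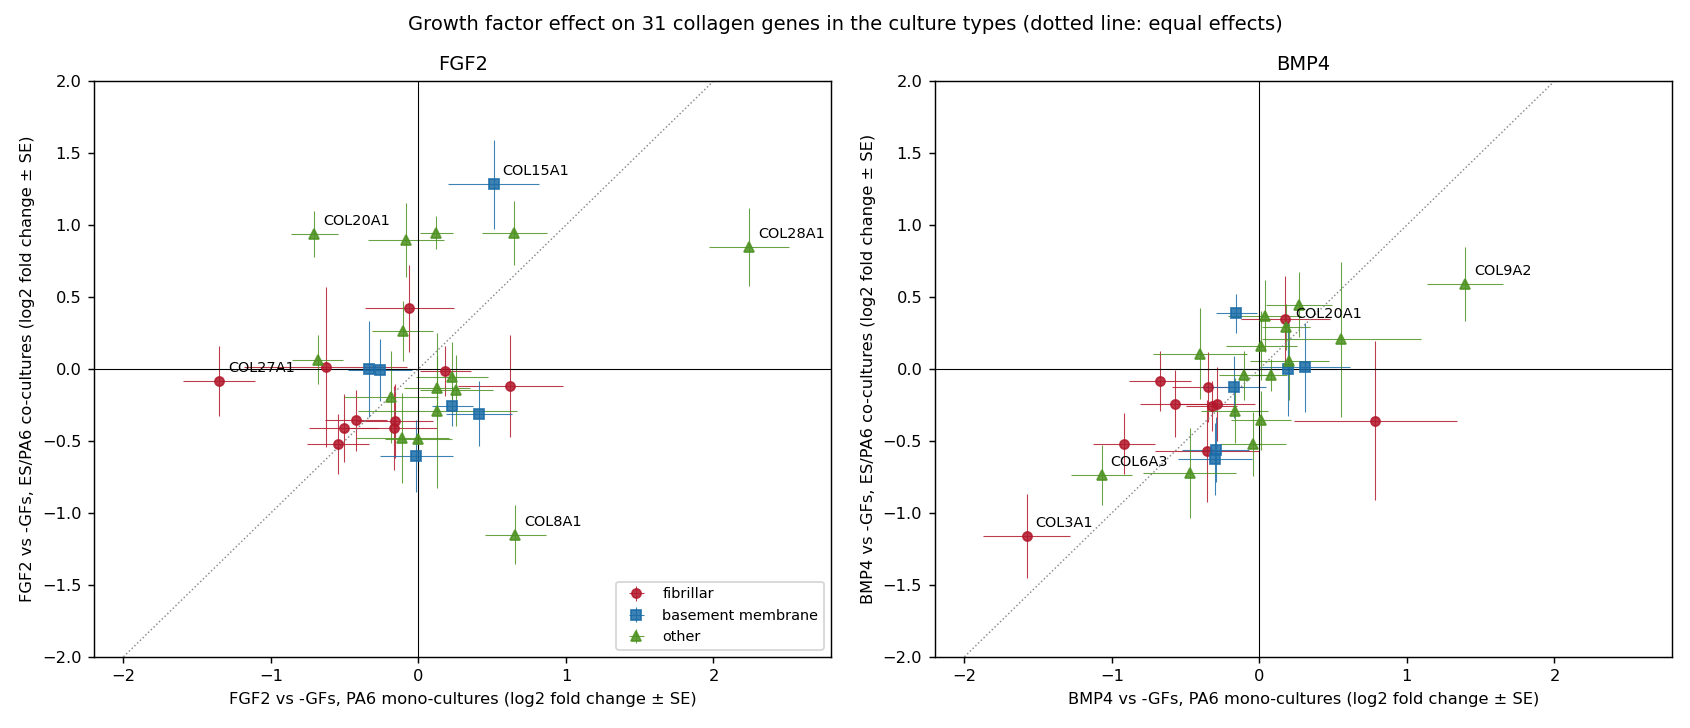
Log2 fold change against -GFs medium of the 31 collagen genes in PA6 mono-cultures (x axis) and ES/PA6 co-cultures (y axis) for FGF2 (left) and BMP4 (right), with SE bars; shapes and colours give the collagen class, and named genes are those called in either culture type plus COL20A1. With FGF2, COL8A1 and COL20A1 lie in opposite quadrants, and with BMP4, COL3A1 lies lowest in both culture types, at -1.58 and -1.16.

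The type I chains, the bulk of fibrillar collagen, were not called for any growth factor. COL1A1 read 13.42, 13.54 and 13.51 in PA6 -GFs, 13.10, 12.62 and 13.23 with FGF2 and 12.74, 12.93 and 13.10 with BMP4. Both treated groups lay below the -GFs arrays, with log2 fold changes of -0.51 ± 0.23 (adjusted p = 0.183) and -0.57 ± 0.23 (adjusted p = 0.292). In co-cultures it read 11.48, 12.14 and 11.75 in -GFs medium, 11.07, 11.54 and 11.53 with FGF2 and 11.00, 11.99 and 11.65 with BMP4, with overlap throughout. Within each replicate number it was lower with FGF2 (-0.41, -0.61 and -0.22) and with BMP4 (-0.47, -0.15 and -0.10), and neither passed the test with the replicate block (adjusted p = 0.109 and 0.488). COL1A2 read 13.50, 13.20 and 13.18 in PA6 -GFs, 13.31, 12.22 and 12.71 with FGF2 and 12.49, 12.24 and 12.37 with BMP4. In co-cultures it read 11.40, 11.50 and 11.11, then 10.90, 10.69 and 10.85 with FGF2 and 11.03, 10.78 and 10.65 with BMP4. Both factors gave co-culture arrays below all -GFs arrays, at -0.52 ± 0.21 each, and neither passed the test (adjusted p = 0.182 for FGF2 and 0.352 for BMP4).

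COL5A2, a regulatory chain of type V and the neighbour of COL3A1 on chromosome 1, did not follow it past the test. It read 9.01, 8.96 and 8.76 in PA6 -GFs and 8.60, 8.52 and 8.75 with BMP4, a difference of -0.29 ± 0.26 (adjusted p = 0.773). FGF2-treated PA6 cells read 8.78, 8.53 and 8.94, and the co-cultures read 7.23, 7.90 and 6.37 in -GFs medium, 6.59, 6.91 and 6.92 with FGF2 and 6.88, 7.07 and 6.82 with BMP4. As a class, the 10 fibrillar genes had median log2 fold changes of -0.24 for FGF2 and -0.25 for BMP4 in co-cultures, and of -0.30 and -0.35 in PA6 cells. Over all genes the medians were -0.01, 0.00, -0.01 and 0.01. Values below 0 were found for 8, 9, 8 and 8 of the 10 genes, against 51.3%, 50.6%, 51% and 48% of all genes. These medians rest on genes that for the most part did not pass the test. The co-culture counts include COL27A1, detected on no co-culture array. They also include COL11A1, detected on 2, 0 and 2 arrays in -GFs, FGF2 and BMP4 medium, so these signs rest on signals near background. A further COL11A1 probe gave 0.41 for FGF2 and 0.49 for BMP4 in co-cultures, neither past the test.

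The main basement membrane chains COL4A1 and COL4A2, neighbours on chromosome 8 that assemble into the common type IV trimer, were not called for a growth factor. COL4A1 read 13.13, 13.45 and 12.38 in ES/PA6 -GFs, 12.46, 12.35 and 12.34 with FGF2 and 12.26, 12.85 and 11.98 with BMP4. COL4A2 read 12.24, 12.81 and 11.85, then 12.04, 12.11 and 11.81 with FGF2 and 11.50, 12.17 and 11.54 with BMP4. The groups overlapped for both chains, but within each replicate number the treated array was the lower. COL4A1 differed by -0.66, -1.11 and -0.05 with FGF2 and by -0.87, -0.60 and -0.40 with BMP4, and COL4A2 by -0.19, -0.70 and -0.04 and by -0.73, -0.64 and -0.31. With the replicate block COL4A1 passed the adjusted p with both factors (0.0621 and 0.0991), under the fold criterion, and COL4A2 did not (0.315 and 0.103). In PA6 cells COL4A1 read 13.84, 13.47 and 13.15 in -GFs medium, 13.56, 13.49 and 13.36 with FGF2 and 13.10, 13.33 and 13.12 with BMP4. COL4A2 read 13.10, 12.64 and 12.57, then 13.13, 13.08 and 13.33 with FGF2 and 12.31, 12.61 and 12.50 with BMP4. For COL4A2 all FGF2-treated PA6 arrays lay above all BMP4-treated ones, by 0.71 ± 0.23 (adjusted p = 0.045), under the fold criterion.

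COL18A1, the source of the endostatin fragment, read 13.29, 13.15 and 13.21 in ES/PA6 -GFs, 13.07, 12.93 and 12.88 with FGF2 and 13.66, 13.68 and 13.46 with BMP4. The 3 groups did not overlap, yet the differences from -GFs medium were -0.26 ± 0.14 (adjusted p = 0.368) and 0.39 ± 0.14 (adjusted p = 0.265), and that between FGF2 and BMP4 was -0.64 ± 0.14 (adjusted p = 0.0115), under the fold criterion. In PA6 cells it read 12.00, 12.12 and 11.56 in -GFs medium, 12.15, 12.23 and 11.98 with FGF2 and 11.80, 11.79 and 11.62 with BMP4.

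Endothelial markers (5 of 6 tested, without TIE1) summed to 788.67 to 1352.4 in ES/PA6 -GFs, 1478.3 to 2166.3 with FGF2 and 1571.9 to 2415.7 with BMP4. The list's highest log2 fold changes were those of PECAM1, at 0.98 for FGF2 (adjusted p = 0.0755) and 1.17 for BMP4 (adjusted p = 0.0994), and TEK (0.61 and 0.36, not past the test). CDH5 (0.23 and 0.33), KDR (-0.21 and 0.22) and ICAM2 (-0.44 and 0.03) did not pass. CDH5 read 5.37 to 6.44 over the co-cultures, where the lowest detected signals were 5.83 to 5.98, so its values lie near background. The sums were weighted to PECAM1 and TEK. PECAM1 and the pluripotency marker NANOG were both lowest on replicate 2 of each co-culture group, and the part of pluripotent cells in the PECAM1 signal was not tested. TEK read 7.87 to 8.31 in PA6 -GFs and 8.25 to 8.77 in ES/PA6 -GFs, so its signal was not confined to co-cultures. Primitive endoderm markers (5 of 8 tested, without GATA4, AFP and FOXA2) summed to 3015.7 to 3240, 3878.3 to 5037.1 and 2360.5 to 3016.2. In PA6 cells alone they summed higher, to 7259.9 to 7977.1, 6428.6 to 7781.2 and 9493.8 to 11007. GATA6 read 12.25 to 12.40 and DAB2 11.11 to 11.36 in PA6 -GFs, so the list was not particular to endoderm here. Among the endoderm markers LAMA1 was called with FGF2 in co-cultures (1.001, adjusted p = 0.0201), and SOX17, SOX7, GATA6 and DAB2 did not pass the test with either factor. The part of endothelial and endoderm cells in the type IV, XV and XVIII values was not tested. The 6 basement membrane genes had median log2 fold changes of -0.13 and -0.06 for FGF2 and BMP4 in co-cultures and of 0.11 and -0.17 in PA6 cells. The co-culture medians include COL4A6, which was detected on no co-culture array, so its values there are background.

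COL6A1 of the other class read 15.28, 15.30 and 15.13 in PA6 -GFs, 15.68, 15.14 and 15.27 with FGF2 and 14.99, 15.26 and 15.33 with BMP4, with overlap among the groups. In co-cultures COL6A1 read 14.64, 14.68 and 13.82 in -GFs medium, 14.28, 14.29 and 14.16 with FGF2 and 13.83, 14.23 and 13.50 with BMP4, again with overlap. Within each replicate number BMP4 differed from -GFs medium by -0.81, -0.44 and -0.32, which did not pass the test with the replicate block (adjusted p = 0.149). The 15 other collagens had medians of -0.06, 0.05, 0.12 and 0.01.

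**Figure D3:**
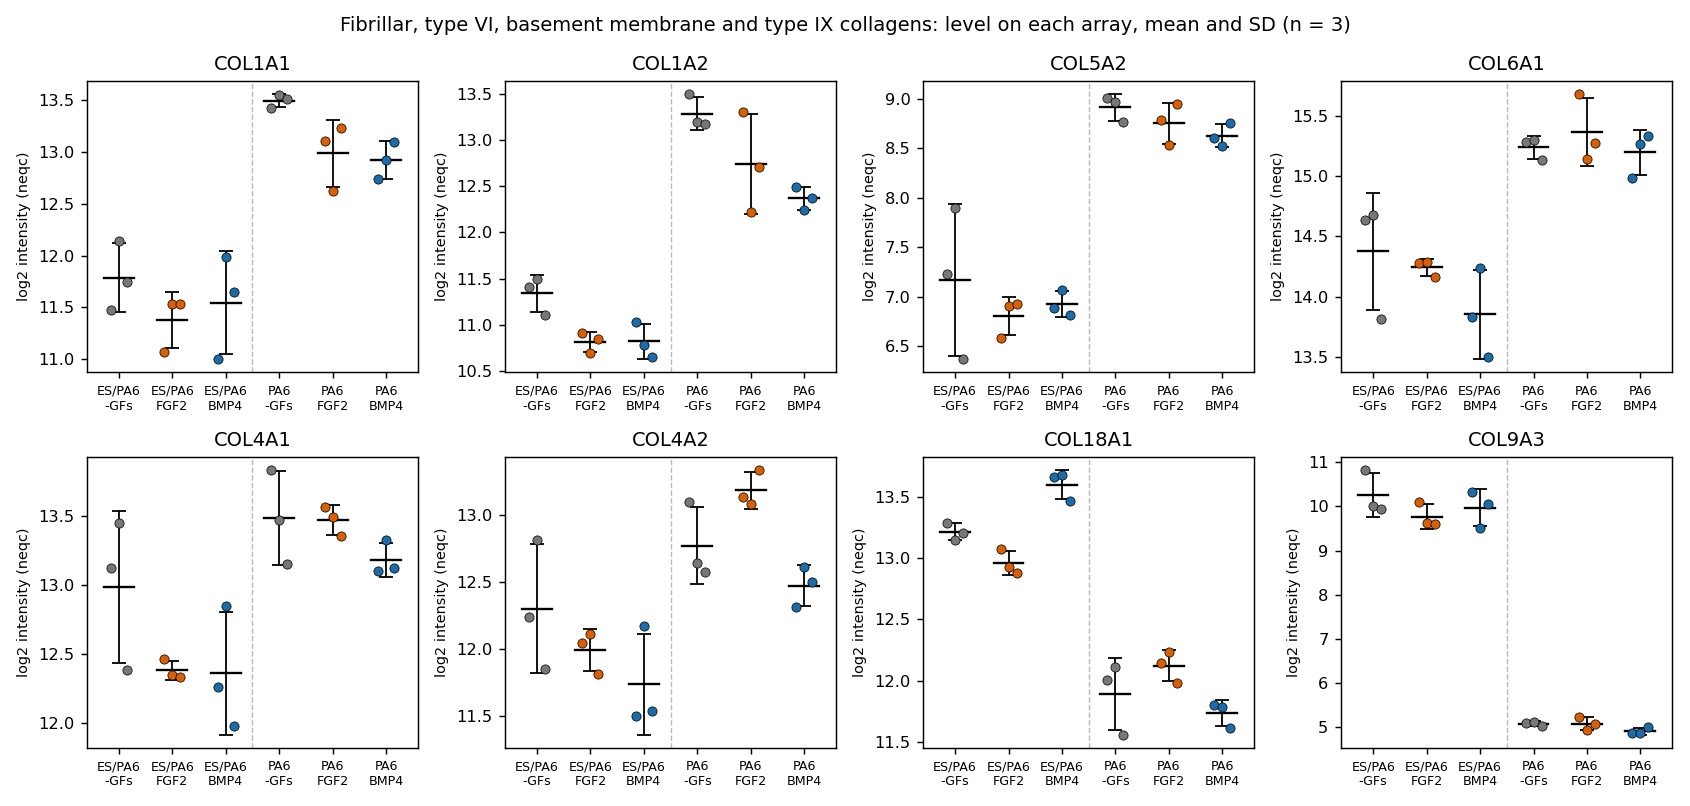
Normalised level (y axis, log2 intensity) of 8 further collagen genes on each array by group (x axis); points are arrays, horizontal bars are means and error bars are SD (n = 3), and y axes do not start at 0. COL1A1, COL1A2 and COL5A2 were lower in every ES/PA6 array than in every PA6 array, COL18A1 and COL9A3 were higher, and COL9A3 stayed between 4.87 and 5.23 in PA6 cells.

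The culture types were compared in -GFs medium to place each collagen between stroma alone and stroma with ES cells. Of 31 collagens 16 were called, 11 lower and 5 higher in ES/PA6, where 39% of all genes were called, 19.5% lower and 19.4% higher. The 16 include COL27A1, COL4A6, COL9A3 and COL22A1, which were detected in 1 culture type alone, so the detection rule built in their difference. They also enter the medians and counts below. Of the 20 collagens detected on all 18 arrays, 10 were called, 9 lower and 1 higher, beside 3668 of 10071 genes so detected. The fibrillar genes had a median log2 fold change of -1.17, the basement membrane genes of -0.77 and the others of -0.39, against -0.11 over all genes. Values below 0 were found for 9 of 10, 5 of 6 and 10 of 15 genes of these classes and for 54.7% of all genes. At any fold 26 of 31 collagens passed the adjusted p, against 71.2% of all genes. Among the fibrillar genes called lower were COL1A1 (-1.71 ± 0.23, adjusted p = 7.67e-06), COL1A2 (-1.95 ± 0.21), COL3A1 (-1.39 ± 0.29) and COL5A2 (-1.74 ± 0.26). COL27A1 was detected in all PA6 arrays and no co-culture array and was at least 8.97-fold lower (adjusted p = 1.3e-09). Beyond the fibrillar class, COL16A1 (-2.12 ± 0.17), COL20A1 (-1.21 ± 0.16), COL23A1 (-1.10 ± 0.22) and COL15A1 (-1.04 ± 0.31) were called lower. The COL15A1 call was lost without ES/PA6 replicate 3 (-0.70) or PA6 replicate 3 (-0.96), and that of COL23A1 without PA6 replicate 1 (-0.96).

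The X-linked neighbours COL4A5 and COL4A6, chains of the type IV networks found in epithelial basement membranes, were also called lower in ES/PA6. COL4A5 was detected in every group and differed by -1.72 ± 0.22 (adjusted p = 2.77e-06). COL4A6 was detected on 2 of 3 PA6 -GFs arrays and on no co-culture array, at least 1.70-fold lower (adjusted p = 0.00132), a call lost without PA6 replicate 1 (-0.97).

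COL9A3, another type IX chain, had the largest bound among the collagens on its difference between the culture types in -GFs medium. It read 10.83, 10.01 and 9.95 in ES/PA6 -GFs and was detected on no PA6 array, which made it at least 15.6-fold higher (adjusted p = 1.05e-11). FGF2-treated co-cultures read 10.09, 9.61 and 9.60 and BMP4-treated ones 10.33, 9.51 and 10.06, so the levels overlapped among the media. COL2A1 (2.61 ± 0.55, adjusted p = 0.000537), COL18A1 (1.32 ± 0.14, adjusted p = 3.37e-07) and COL9A2 (1.12 ± 0.26, adjusted p = 0.00107) were also higher. COL22A1, detected on no PA6 array, was at least 1.13-fold higher (adjusted p = 6.88e-09). COL2A1 varied widely within the co-cultures, with 7.77, 9.09 and 10.24 in -GFs medium. COL9A3, COL22A1, COL27A1 and COL4A6 entered the test through 1 culture type alone, so their difference between the culture types was built into the detection rule.

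The 15 genes with more than 1 member probe allowed the calls to be read on a further probe, whose position on the transcript was not known here. In the culture comparison, each further probe of COL2A1, COL3A1, COL4A5, COL5A2, COL23A1 and COL27A1 was also called with the same sign, that of COL27A1 and 1 of COL2A1 against a group in which it was not detected. A further COL18A1 probe, detected in every group, was also called (1.25). Another of COL18A1 and that of COL4A6 were not detected in 1 of the culture types and were not called. One further probe of COL6A1 (-1.62, adjusted p = 0.000515) and that of COL6A3 (-1.36, adjusted p = 0.000873) were called lower where the probe used was not, so that 18 collagens were called when every probe was its own feature. The other further COL6A1 probe gave -0.76 (adjusted p = 0.00137), under the fold criterion like the probe used.

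**Figure D4:**
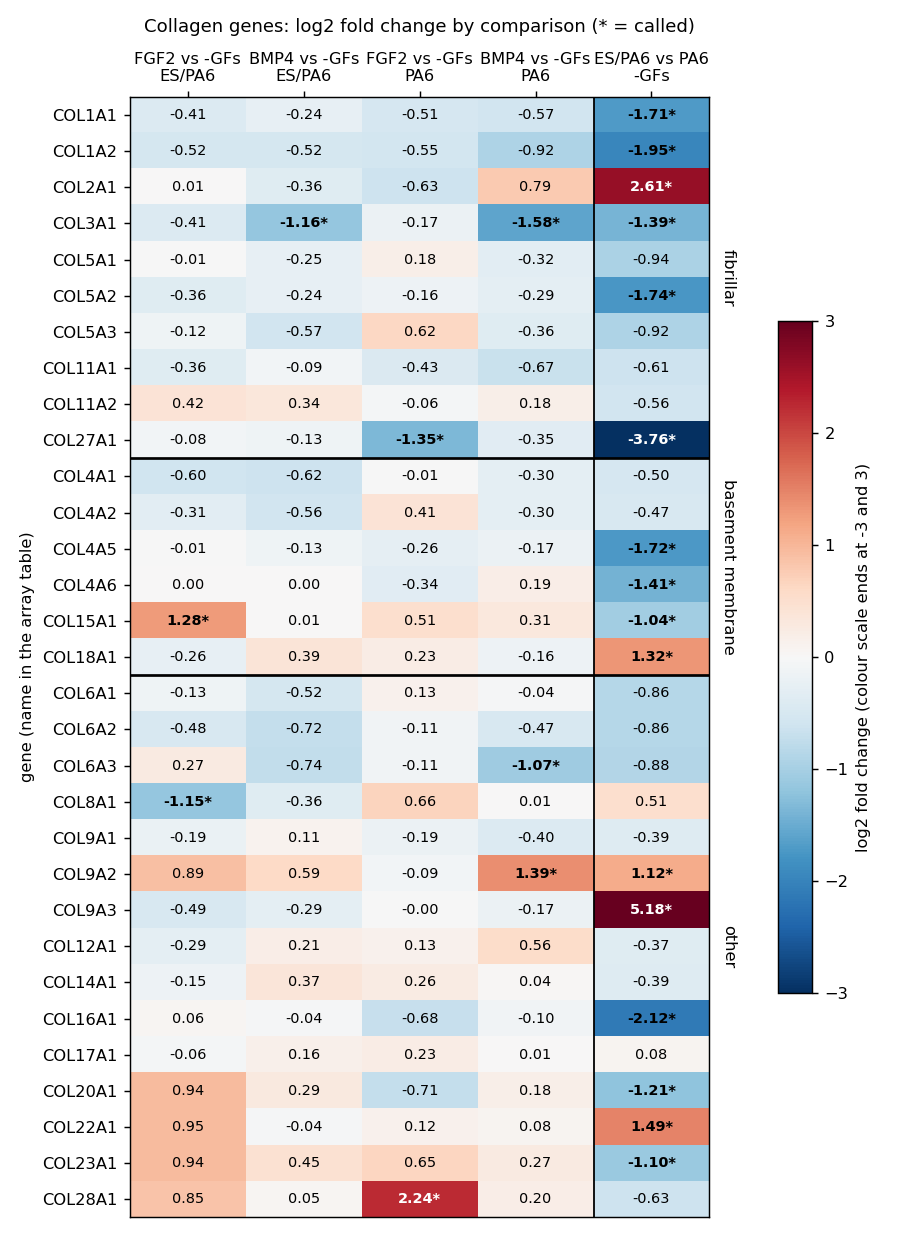
Log2 fold change (colour and printed value) of the 31 collagen genes (y axis, by class) in 5 comparisons (x axis); an asterisk marks a gene called at adjusted p under 0.1 and absolute log2 fold change over 1. The growth factor columns hold 2, 1, 2 and 3 called genes, and the column of ES/PA6 against PA6 holds 16.

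Genes that modify, fold, cleave, cross-link and bind collagen were taken from a list of 42, of which 34 were tested. In FGF2-treated PA6 cells 3 were called, against 5.27% of all genes. BMP1, the protease that removes the C-terminal propeptide of fibrillar procollagens, read 13.40, 13.59 and 13.62 in -GFs medium and 14.90, 14.43 and 14.60 with FGF2, and rose by 1.10 (adjusted p = 7.22e-05; 0.98 without FGF2 replicate 1). ITGA1, the α1 subunit of a collagen-binding integrin, read 9.28, 9.61 and 9.15, then 7.86, 7.38 and 7.75, and fell by 1.68 on the log2 scale (adjusted p = 0.00307). LEPREL1, a prolyl 3-hydroxylase, read 9.77, 9.68 and 9.85, then 9.27, 8.08 and 8.53, and fell by 1.14 on the log2 scale (adjusted p = 0.006). Without FGF2 replicate 2 the LEPREL1 difference was -0.86, under the fold criterion. Neither FGF2 nor BMP4 called a gene of the list in co-cultures, nor did BMP4 in PA6 cells, by limma, where 7, 3 and 8 of the 34 had an unadjusted p under 0.05. Over all genes 3.34%, 0.76% and 1.41% were called in these comparisons, so that none of 34 is close to the background for BMP4. At any fold, 3 of the 34 passed the adjusted p in FGF2-treated co-cultures, 1 higher and 2 lower, against 9.05% of all genes. BMP1 was under the fold criterion there, at 0.87 (adjusted p = 0.00171), with arrays at 12.16, 12.14 and 11.67 in -GFs medium and 12.90, 12.92 and 12.76 with FGF2. LEPREL1 was lower on every FGF2 co-culture array, at 5.98, 6.09 and 6.78 against 7.30, 7.17 and 7.29 in -GFs medium (-0.97), also under the fold criterion.

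Between FGF2 and BMP4, 2 genes of the list were called in co-cultures and 4 in PA6 cells, against 2.85% and 5.82% of all genes. BMP1 was higher with FGF2 in both culture types, at 1.01 in co-cultures (adjusted p = 0.000695) and 1.31 in PA6 cells (adjusted p = 1.3e-05). ITGA1 was lower, at -1.15 (adjusted p = 0.0678) with overlapping arrays in co-cultures and -2.43 (adjusted p = 0.000112) in PA6 cells. On co-culture FGF2 replicates 1 and 2 ITGA1 read 5.47 and 5.87, under the lowest detected signals of 5.88 and 5.91, so its size there rests partly on background. The co-culture calls were lost without any 1 of 3 arrays for BMP1 (0.95 to 0.996) and of 4 arrays for ITGA1 (-1.04 to -0.84). In PA6 cells P4HA3, a catalytic subunit of collagen prolyl 4-hydroxylase, was also called higher with FGF2 (1.15, adjusted p = 0.0133), and PLOD2, the lysyl hydroxylase of the fibril ends, lower (-1.01, adjusted p = 0.000968). The PLOD2 call was lost without FGF2 replicate 1 (-0.97), FGF2 replicate 2 (-0.94) or BMP4 replicate 3 (-0.89), without background correction (-0.98) and with median scaling, where it fell just short of the fold criterion. LOX, which starts the cross-linking of fibrils, read 15.15, 15.20 and 15.07 in PA6 -GFs and 14.42, 13.97 and 14.27 with FGF2, a difference of -0.92 (adjusted p = 0.0157) under the fold criterion. The FGF2 effect on LOX differed between the culture types by 1.03 (adjusted p = 0.0685). SERPINH1, the collagen-specific chaperone HSP47, had log2 fold changes between -0.06 and 0.00 in the 4 comparisons with -GFs medium.

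In -GFs medium 21 of the 34 genes were lower and 1 was higher in ES/PA6 than in PA6 cells, with a median log2 fold change of -1.25, where 19.5% of all genes were lower and 19.4% higher. The gene that was higher was PCOLCE2, an enhancer of procollagen C-proteinase, at least 9.14-fold (adjusted p = 1.98e-12), and it was detected on no PA6 array, so that its difference too was built into the detection rule. As for the collagens, this comparison moved with the stromal marker list given above, and its part in the result was not tested.

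**Figure D5:**
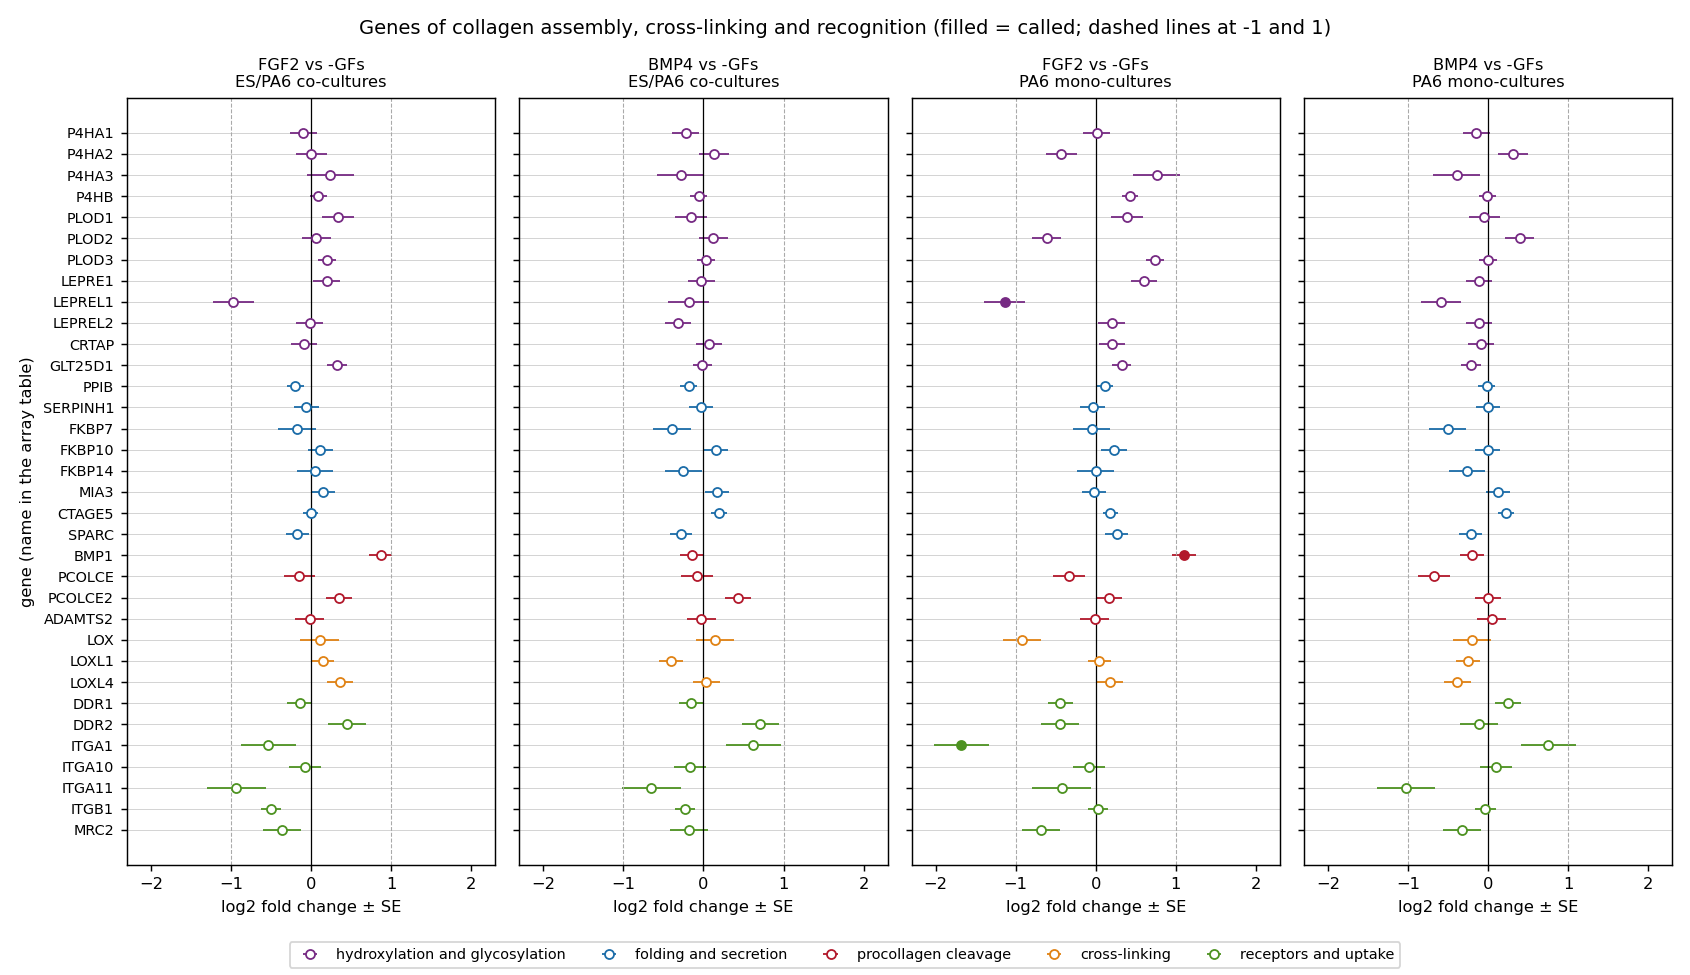
Log2 fold change with SE (x axis) of the 34 tested genes of collagen assembly, cross-linking and recognition (y axis) in the 4 comparisons with -GFs medium; colours give the step and filled circles the genes called. Filled circles appear only for FGF2-treated PA6 cells, at 1.10 for BMP1, -1.68 for ITGA1 and -1.14 for LEPREL1.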

How the data were processed

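Gene expression was measured on Illumina MouseWG-6 bead arrays after 3 days in 6 groups of 3 arrays. The authors deposited an unnormalised intensity and a detection p-value per probe and array, exported from GenomeStudio (2011.01 in the submitters' processing notes), and 5 stray lines at the end of that table were left out. The deposited detection p-values decided which probes were kept: p under 0.05 on at least 3 of 18 arrays, 22987 probes. Levels are log2 intensities after normexp correction, quantile normalisation and an offset of 16 (neqc, limma 3.58.1 in R 4.3.3), which compresses differences of dim probes. The probe with the largest mean stood for its gene, leaving 16446 genes. All arrays were fitted together with limma as 6 group means, with 9 comparisons and Benjamini-Hochberg adjustment over all genes. A group undetected on all its arrays gave a bound, computed from the lowest detected signal of each array. The number of arrays limits the precision.

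The collagens and gene lists were chosen with earlier results of these data known. Values per array were given for collagens called in any comparison with -GFs medium, for COL1A1, COL1A2, COL3A1, COL4A1, COL4A2, COL5A2, COL6A1 and COL18A1, and for assembly genes called; COL9A3, COL20A1, COL2A1 and LOX were added after their values were seen. Same-numbered co-cultures deviated together (correlations of 0.33 to 0.52 over 9 pairs), mono-cultures less (0.06 to 0.16), so the numbers pair the co-cultures. Alternatives covered background, scaling, filters, arrays fitted, probes, thresholds, a replicate block and leaving out each array. The fit was tested on simulated data. The column names give no slide or scan. Levels were compared for 1 probe across arrays, never between probes.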

Additional observations from a re-analysis of the deposited data

Results flagged for a closer look

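The limma test of the difference in FGF2 effect between the culture types called 4 collagens and LOX. FGF2 in ES/PA6 minus FGF2 in PA6 was 1.65 for COL20A1 (adjusted p = 0.000252), -1.81 for COL8A1 (adjusted p = 0.000931), 1.27 for COL27A1 (adjusted p = 0.0282), -1.39 for COL28A1 (adjusted p = 0.0294) and 1.03 for LOX (adjusted p = 0.0685), all on the log2 scale. For COL20A1 and COL8A1 all 3 FGF2 arrays lay on one side of the -GFs arrays in co-cultures and on the other side in PA6 cells. COL27A1 was detected on no co-culture array, so its value rests on signals at background there. The LOX result was lost without any 1 of 5 of the 12 arrays.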

How the results depend on the processing

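Over 74 results on single genes, 1101 of 1178 values under the alternatives kept their direction and side of the threshold, 67 lost a call, 1 gained it (COL1A2 with BMP4 in PA6 cells, with no fold criterion) and 9 changed sign. The 9 were differences of uncalled genes with 1 array left out. Over these settings COL5A2 ranged from -0.76 to 0.0034 with FGF2 and from -0.64 to 0.12 with BMP4 in co-cultures, COL6A1 from -0.41 to 0.017 with FGF2 and COL1A1 from -0.46 to 0.030 with BMP4. In PA6 cells COL3A1 ranged from -0.48 to 0.0090, COL4A1 from -0.18 to 0.16 and COL6A1 from -0.031 to 0.24 with FGF2, and COL6A1 from -0.11 to 0.061 with BMP4. COL28A1 and COL3A1 in PA6 cells and COL8A1 in co-cultures kept their calls against -GFs medium under each alternative run for them. Collagens called changed by over 1.5 times as follows. Without background correction, FGF2 in PA6 cells called 1, FGF2 against BMP4 called 1 in co-cultures and 2 in PA6 cells, the culture types 10 and the difference of the FGF2 effects 2. With median scaling, FGF2 called 4 and BMP4 0 in co-cultures. With detection on all 18 arrays, which removes genes, FGF2 in PA6 cells called 1, FGF2 against BMP4 in PA6 cells 2 and the culture types 10. With no detection filter, or at an adjusted p under 0.05, BMP4 in co-cultures called 0. With co-culture arrays only, FGF2 called 1, BMP4 0 and FGF2 against BMP4 1. With no fold criterion, FGF2 called 7 in co-cultures and 6 in PA6 cells, FGF2 against BMP4 6 and 12, and the culture types 26. Other causes were not tested.

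Leaving out each array in turn gave 2 to 4 calls for FGF2 and 0 to 3 for BMP4 in co-cultures, 2 to 2 and 2 to 3 in PA6 cells, 0 to 3 and 3 to 5 for FGF2 against BMP4 in co-cultures and PA6 cells, 14 to 21 for the culture types, 4 to 5 for the difference of the FGF2 effects and 0 to 0 for that of the BMP4 effects. With the replicate block, the counts were 2 and 1 in co-cultures, 2 and 3 in PA6 cells, 2 and 5 for FGF2 against BMP4 (5 with COL2A1 added in PA6 cells), 16, 4 and 0, so that it changed no other call of a collagen. The COL2A1 probe used was detected on 1 of the 3 FGF2-treated PA6 arrays, so that call rests partly on background. Without the block, further COL2A1 probes gave -0.49 (adjusted p = 0.493) and -0.07 (adjusted p = 0.961) there. Probes near background, such as COL20A1, COL22A1 and COL4A6, have compressed or bounded differences.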
